A study of Homo sapiens with 4 samples.

Results

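Glucose breakdown and the response to low oxygen share many genes in myeloid cells, and 39 of these genes are described here in THP-1 cells. They were chosen by name for their known roles: sugar uptake and trapping, the steps of glycolysis, the fate of pyruvate and lactate, oxygen sensing, and targets of the hypoxia-inducible factors. Of the 39, 36 have a probe set annotated to that gene alone, out of 19775 such genes on the array, and the other 3 are not analysed here. Where a gene has several such probe sets, the brightest on average over the 4 arrays was used. Glycolysis turns glucose into pyruvate in the cytosol, and lactate dehydrogenase then restores the cofactor that the pathway consumes. Activated monocytes and macrophages are known for a high glycolytic rate. Hypoxia-inducible factors are made of an oxygen-labile α subunit and a stable partner, and prolyl hydroxylases mark the α subunit for degradation when oxygen is present.

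The study compared THP-1, a human monocytic leukemia cell line, in 2 sublines and 2 conditions, to find genes that depend on Siglec-14 in the response to a bacterium. Siglec-14,NTHi[−] is Siglec-14/THP-1, the subline that expresses the activating receptor Siglec-14, kept without bacteria, and Siglec-14,NTHi[+] is the same subline given heat-killed nontypeable Haemophilus influenzae (NTHi) strain 2019 at 100 bacteria per cell. Siglec-5,NTHi[−] and Siglec-5,NTHi[+] are the counterparts in Siglec-5/THP-1, which expresses the paired receptor Siglec-5 and stands for monocytes that lack Siglec-14. All cells were incubated for 6 h in serum-free macrophage medium, no sample was labelled as kept in low oxygen, and 250 ng of RNA from each was hybridized to 1 Affymetrix U133 Plus 2.0 expression array. The sources used here do not say whether each subline is a clone or a pool, so a difference between the sublines and an effect of the receptor cannot be told apart. RNA was taken from whole cultures, so fewer expressing cells and less RNA per cell cannot be told apart either.

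The values are signal intensities on a linear scale in array units, and the floor used for detection is the median of all signals, 16.0. The sums of all signals differed between the arrays, from 12735500 to 14047100, and no rescaling was applied. The 3′ to 5′ signal ratio of the GAPDH control probe sets lay between 0.974 and 1.03 and that of ACTB between 1.19 and 1.21, so this measure of RNA integrity was similar on all arrays. Of 7 measured myeloid markers, 6 reached the floor on at least 1 array, while CD14 was below it on all 4, and their summed signal was between 5497 and 6144 per array. LYZ had 3172, 3036, 3430 and 3180 in Siglec-14,NTHi[−], Siglec-14,NTHi[+], Siglec-5,NTHi[−] and Siglec-5,NTHi[+]. The single SIGLEC5 probe set had 21.3, 19.5, 4.13 and 21.6 in that order, which does not separate the sublines, and whether it reads the construct is not stated.

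Each condition had 1 array and no replicate, so the ratio of a pair of arrays carries no error and was not tested. A gene was called in a pair when its higher signal reached the floor and the signals differed at least 1.5-fold. Where all samples of 1 subline or condition are said to lie above the others, this is a description. The share of all genes that separate in this way was not counted. As a guide to the spread, the log2 ratio with NTHi had an SD of 0.23 in Siglec-14/THP-1 and 0.27 in Siglec-5/THP-1 over all genes whose higher signal was at least 105, the 75th percentile. Between the sublines it was 0.52 without NTHi and 0.54 with NTHi. For dimmer genes at the floor the SD was 0.95 and 0.97 with NTHi, in the same order of sublines. Between the sublines it was 1.08 without NTHi and 1.12 with NTHi for these dimmer genes. A limma fit over all 4 arrays, with NTHi and cell line as additive terms, tests what both lines or both conditions share. Its standard errors come from the trend of variance with intensity and not from the gene's own arrays. Without that trend 0 of 13935 genes passed for either term after Benjamini-Hochberg adjustment. At an unadjusted limma p under 0.05, 749 of these 13935 genes passed for NTHi and 1661 for cell line. That threshold also passes genes where nothing differs, so these counts are not read as responses. Genes of the list among them were SLC2A6 for NTHi, and SLC2A3, SLC2A6, HK2, ENO2 and VEGFA for cell line. The error of the fit is the departure of these 4 arrays from additivity, pooled over probe sets of like intensity. It takes in any difference in response between the lines and is not a spread between replicates, and the p-values rest on it. A difference in response between the lines was not tested. Scaling the arrays changes these calls: the fit as deposited gave 867 genes higher and 690 lower in Siglec-14/THP-1, against 1032 and 2204 once the array medians were made equal, 1536 and 1572 after quantile normalization and 1880 and 1809 once the trimmed means were made equal.

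Of the 36 genes, 34 reached the floor on at least 1 array and 33 on all 4. HK3, a hexokinase of leukocytes, and ADM, which encodes the vasodilator peptide adrenomedullin, stayed below the floor on every array. EGLN3, an oxygen-sensing prolyl hydroxylase, was above it in Siglec-5,NTHi[−] alone on its brighter probe set, and in Siglec-14,NTHi[+] alone on its second.

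The promoters of SLC2A6, HK2 and ENO2 are shown first, with matches to the hypoxia response element core, to which hypoxia-inducible factors are known to bind. They were not selected by their matches but are 3 of the genes at least 1.5-fold different between the sublines in both conditions. SLC2A3 and VEGFA, which also differed in this way, had no RefSeq window in the set searched. PKM, which differed this much with NTHi only, has 1 window with 1 match and is not shown. SLC2A6 was the only gene of the list that rose with NTHi in the fit to the signals as deposited, and ENO2 and HK2 differed between the sublines in opposite directions. Each window runs from 250 bases before a RefSeq transcription start to 50 bases after it on GRCh38.p14, and capitals mark ACGTG or GCGTG on either strand, where CACGTG counts once on each strand. The SLC2A6 window, chr9:133479050-133479349 on the minus strand, holds 3 matches. HK2 has 2 windows, chr2:74833877-74834176 with 3 matches and chr2:74834920-74835219 with 6, both on the plus strand. ENO2, chr12:6914330-6914629 on the plus strand, holds 1.
SLC2A6: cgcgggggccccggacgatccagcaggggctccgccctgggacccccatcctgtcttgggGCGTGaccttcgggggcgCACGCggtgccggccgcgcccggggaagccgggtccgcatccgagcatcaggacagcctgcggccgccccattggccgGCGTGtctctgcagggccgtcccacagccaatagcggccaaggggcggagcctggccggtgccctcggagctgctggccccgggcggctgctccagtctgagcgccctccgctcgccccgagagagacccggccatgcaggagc
HK2, first start: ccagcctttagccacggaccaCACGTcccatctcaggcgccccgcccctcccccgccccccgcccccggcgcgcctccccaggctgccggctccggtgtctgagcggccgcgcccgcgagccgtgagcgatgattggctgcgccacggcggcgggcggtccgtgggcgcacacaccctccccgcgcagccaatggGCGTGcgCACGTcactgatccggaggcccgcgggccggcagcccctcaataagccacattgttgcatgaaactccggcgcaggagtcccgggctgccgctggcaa
HK2, second start: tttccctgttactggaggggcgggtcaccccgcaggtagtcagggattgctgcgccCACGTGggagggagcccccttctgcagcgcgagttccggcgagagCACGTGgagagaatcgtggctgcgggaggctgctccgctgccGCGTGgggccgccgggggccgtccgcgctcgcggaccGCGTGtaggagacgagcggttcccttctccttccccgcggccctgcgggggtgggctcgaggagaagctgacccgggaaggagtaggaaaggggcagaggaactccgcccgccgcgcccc
ENO2: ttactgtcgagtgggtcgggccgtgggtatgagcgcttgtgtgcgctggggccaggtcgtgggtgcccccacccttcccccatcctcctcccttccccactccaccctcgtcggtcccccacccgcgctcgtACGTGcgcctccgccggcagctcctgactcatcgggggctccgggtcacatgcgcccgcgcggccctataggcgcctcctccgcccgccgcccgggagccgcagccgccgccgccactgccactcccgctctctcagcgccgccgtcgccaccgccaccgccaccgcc

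A match of these letters describes the window and is neither a site nor a cause. Among all 35116 RefSeq promoter windows of this length, 48.4% held at least 1 match. RefSeq windows were matched for 32 of the 36 genes, and 37 of their 55 windows (67.3%) held 1, counting several starts of a gene separately even where they overlap. The NF-κB consensus motif, searched on both strands after the signals had been seen, was in 5.91% of all windows and in none of the 4 shown here.

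With NTHi, SLC2A6 stood apart from the remaining genes of the list, and the 15 core glycolytic enzymes differed by at most 1.24-fold in either line on their brightest probe sets. SLC2A6 encodes GLUT6, a facilitative hexose transporter found in leukocytes. Its signal was 47.5 in Siglec-14,NTHi[−], 130 in Siglec-14,NTHi[+], 16.9 in Siglec-5,NTHi[−] and 68.2 in Siglec-5,NTHi[+]. Both stimulated samples were above both nonstimulated ones, by 2.75-fold within Siglec-14/THP-1 and 4.03-fold within Siglec-5/THP-1, where the starting signal lay just above the floor. SLC2A6 rose in the shared fit by 1.73 on the log2 scale (standard error 0.26, limma adjusted p = 1.08e-08), a call that was lost with the intensity trend or the cell line term left out. The gene has 1 probe set, so no second reading of it was available.

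Few genes of the list were called, and the counts below are too small to be read as more or fewer than among all genes. In Siglec-14/THP-1, 2 of 33 genes at the floor were at least 1.5-fold higher with NTHi, SLC2A6 and VEGFA, against 7.9% of 13210 genes, and 0 were lower, against 6.42%. In Siglec-5/THP-1, 1 of 34 was higher, SLC2A6, against 5.99% of 13014 genes, and 1 was lower, EGLN3, against 8.98%. Only SLC2A6 was higher in both lines, against 1.6% of 12289 genes at the floor in both, and no gene of the list was lower in both, against 1.4%. In the shared fit SLC2A6 was the single gene of 34 that rose, against 0.99% of 13935 genes, and 0 fell, against 0.294%. With the trimmed means of the arrays made equal, 8 of the list passed for NTHi instead of 1, with ALDOA, GAPDH, PGK1, LDHA, LDHB, HIF1A and VEGFA in addition, among 518 of 13939 genes.

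The other sugar transporters and hexokinases did not pass the fit for NTHi. SLC2A1, which encodes the ubiquitous transporter GLUT1 and is a textbook hypoxia target, had 113 and 92.1 in Siglec-14/THP-1 and 136 and 102 in Siglec-5/THP-1, lower with NTHi in both lines (log2 -0.36, standard error 0.19, limma adjusted p = 0.857). SLC2A3, the high-affinity transporter GLUT3, had ratios of 1.14 and 1.18 with NTHi. HK1, the constitutive hexokinase, had 0.974 and 1.22, and HK2, the inducible hexokinase bound to mitochondria, had 0.981 and 0.80.

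The enzymes from glucose-6-phosphate to lactate had ratios near 1 on their brightest probe sets. The 15 enzymes from GPI to LDHB, without the PFKFB regulators, had NTHi ratios between 0.943 and 1.20 in Siglec-14/THP-1 and between 0.808 and 1.14 in Siglec-5/THP-1. Their median log2 ratio was 0.16 in Siglec-14/THP-1 and -0.01 in Siglec-5/THP-1, beside 0.09 and -0.11 over all genes at or above the 75th percentile on at least 1 array. GAPDH, which oxidises the triose phosphate, had 10572, 11794, 11254.5 and 11508 in Siglec-14,NTHi[−], Siglec-14,NTHi[+], Siglec-5,NTHi[−] and Siglec-5,NTHi[+]. On its 6 probe sets the ratio ran from 1.11 to 1.23 in Siglec-14/THP-1 and from 1.02 to 1.08 in Siglec-5/THP-1. Other probe sets differed more for PGK1, where the dimmest of 6 had 1.69 in Siglec-14/THP-1 and 0.768 in Siglec-5/THP-1, and for PKM, where the second had 1.42 in Siglec-5/THP-1 against 0.808 on the brighter one. LDHA, which makes lactate from pyruvate, had 8082 and 9508, and 9857 and 9650. The value in Siglec-14,NTHi[−] was the lowest of the 4 for both GAPDH and LDHA, and that array also had the smallest sum of signals. PFKFB3 and PFKFB4, which set the level of the activator fructose 2,6-bisphosphate, had ratios of 1.03 and 0.873 in Siglec-14/THP-1 and of 0.818 and 0.730 in Siglec-5/THP-1. The dimmer PFKFB4 probe set went the other way in Siglec-14/THP-1, from 4.10, below the floor, to 18.2. In Siglec-5/THP-1 it stayed below the floor. PDK1 and PDK3, the kinases that shut pyruvate out of the mitochondrial cycle, had ratios of 0.952 and 0.994 in Siglec-14/THP-1, and of 0.75 and 0.919 in Siglec-5/THP-1.

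**Figure D1:**
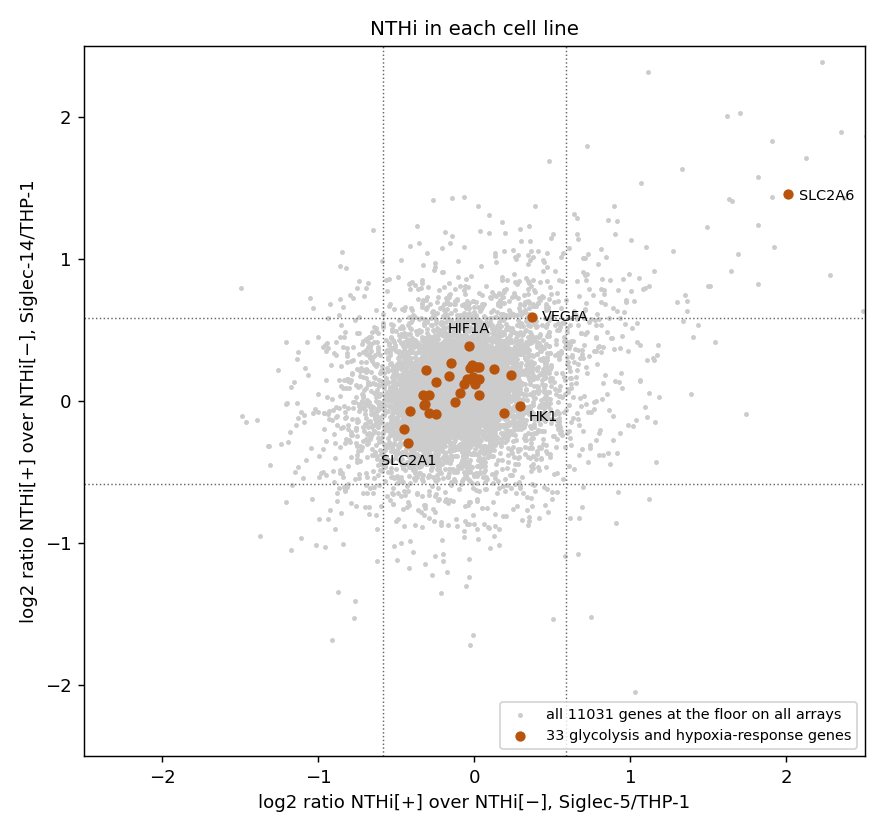
Each point is 1 gene that reached the floor in every sample, with the log2 ratio of NTHi[+] to NTHi[−] in Siglec-5/THP-1 on the x axis and in Siglec-14/THP-1 on the y axis; orange points are 33 genes of the list, grey points all 11031 genes, dotted lines mark 1.5-fold, and 8 genes lie outside the axes. SLC2A6 is alone among the orange points beyond 1.5-fold on both axes.

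Oxygen-sensing genes and hypoxia targets showed 1 ratio past 1.5-fold in Siglec-14/THP-1, that of VEGFA. VEGFA, the angiogenic growth factor, had 772 and 1163 in Siglec-14/THP-1 and 385 and 497 in Siglec-5/THP-1, 1.51-fold and 1.29-fold higher with NTHi. The shared fit did not pass (log2 0.48, standard error 0.15, limma adjusted p = 0.127). It passed under all 3 scalings, but the ratio in Siglec-14/THP-1 was under 1.5-fold after quantile normalization (log2 0.52) and trimmed-mean scaling (log2 0.50). The other 3 VEGFA probe sets had ratios between 0.983 and 1.248 in Siglec-14/THP-1 and between 0.892 and 1.42 in Siglec-5/THP-1. HIF1A, the oxygen-labile subunit HIF-1α, had 2188 and 2868 in Siglec-14/THP-1 and 2059 and 2011 in Siglec-5/THP-1. The stimulated Siglec-14/THP-1 sample was thus the highest of the 4, at 1.31-fold its counterpart, against 0.977 in Siglec-5/THP-1. EPAS1, which encodes HIF-2α, had 177 and 184 in Siglec-14/THP-1 and 221 and 208 in Siglec-5/THP-1, with ratios of 1.04 and 0.939. EGLN1, the main hydroxylase that marks HIF-α, had ratios of 0.939 and 0.845. EGLN3 on its brighter probe set went from 29.3 to below the floor in Siglec-5/THP-1, at least 1.83-fold lower, and was below the floor in both Siglec-14/THP-1 samples. Its second probe set did not show this drop, with 9.64 and 13.0 in Siglec-5/THP-1, both below the floor, and 14.4 and 18.1 in Siglec-14/THP-1, of which the second was above it. The mitophagy receptors BNIP3 and BNIP3L had ratios between 0.804 and 1.13, NDRG1, a stress-responsive gene, 0.942 and 0.819, and the collagen hydroxylase subunit P4HA1 1.18 and 1.01.

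The sublines differed in more genes of the list than either did with NTHi. In both conditions SLC2A3, SLC2A6, ENO2 and VEGFA were at least 1.5-fold higher in Siglec-14/THP-1 and HK2 was at least 1.5-fold lower, 4 and 1 of 33 genes. Over all 12448 genes at the floor in both comparisons, 6.26% were higher and 2.96% lower in both. Without NTHi, 5 of 34 genes of the list were higher, HK1 in addition, against 11.3% of 13284 genes, and 3 were lower, HK2, PFKFB3 and EGLN3, against 11.6%. With NTHi, 6 of 33 were higher, PKM and ANKRD37 in addition to the 4, against 15.1% of 13099 genes, and HK2 alone was lower, against 7.65%. In the shared fit 5 of 34 were higher in Siglec-14/THP-1, SLC2A3, SLC2A6, ENO2, PKM and VEGFA, against 6.22% of 13935 genes, and HK2 was lower, against 4.95%. As shares these are 14.7% and 8.82% without NTHi, 18.2% and 3.03% with NTHi, and 12.1% and 3.03% in both, which lie on either side of those of all genes. With the arrays scaled in 1 of the 3 other ways, 8 to 11 genes of the list were higher in the fit and 4 or 5 lower, and the 6 named here were among them each time. Over all genes, 7.41% to 13.5% were then higher and 11.3% to 15.8% lower. The myeloid marker ITGAM also differed between the sublines, with 290 and 353 in Siglec-14/THP-1 and 198 and 167 in Siglec-5/THP-1 (log2 0.81, standard error 0.16, limma adjusted p = 3.58e-05), the only 1 of the 6 markers at the floor to pass, and its part in these differences was not tested. Of 9 measured markers of other cell types, 4 reached the floor on at least 1 array, EPCAM and HBB on all of them. The T cell receptor chain genes CD3D and CD3G were the others, CD3D with 19.8 in Siglec-14,NTHi[−] and 21.3 in Siglec-5,NTHi[+] and CD3G with 23.2 in Siglec-5,NTHi[+]. CD3E, MS4A1, KRT19, CDH5 and VWF were below the floor on all arrays. The summed signal of the 9 was between 141 and 178 per array.

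SLC2A3 had 290.5 and 330.5 in Siglec-14/THP-1 and 147 and 173 in Siglec-5/THP-1, so that the lower Siglec-14/THP-1 sample was above the higher Siglec-5/THP-1 sample. It was 1.98-fold higher without NTHi and 1.91-fold with NTHi (log2 0.96 in the shared fit, standard error 0.17, limma adjusted p = 5.84e-07). All 3 probe sets of SLC2A3 alone had ratios between 1.91 and 2.57. The near-identical paralog SLC2A14 shares 2 further probe sets with it, which had 1.57 and 1.80 without NTHi and 1.89 and 2.36 with NTHi, so part of the SLC2A3 signal may belong to the paralog and was not separated. SLC2A1 went the other way, with ratios of 0.829 and 0.906. SLC2A6 was 2.81-fold higher without NTHi and 1.91-fold higher with NTHi (log2 1.21, standard error 0.26, limma adjusted p = 1.04e-04), and its signal in stimulated Siglec-5/THP-1, 68.2, was above that in nonstimulated Siglec-14/THP-1, 47.5. With the NTHi term left out the difference did not pass the fit, although its size, 1.21 on the log2 scale, is the same in this balanced design.

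The hexokinases had ratios on opposite sides of 1, and HK2 alone passed the fit to the signals as deposited. HK2 had 321 and 315 in Siglec-14/THP-1 and 663 and 530 in Siglec-5/THP-1, 2.06-fold and 1.68-fold higher in Siglec-5/THP-1. It was lower in Siglec-14/THP-1 in the shared fit (log2 -0.90, standard error 0.15, limma adjusted p = 4.61e-07). The ratios of Siglec-14/THP-1 to Siglec-5/THP-1 on the 3 HK2 probe sets lay between 0.485 and 0.663 without NTHi, and between 0.467 and 0.950 with NTHi. HK1 had 103 and 100 in Siglec-14/THP-1 and 60.4 and 73.85 in Siglec-5/THP-1, 1.71-fold and 1.36-fold higher in Siglec-14/THP-1 (log2 0.61, standard error 0.21, limma adjusted p = 0.0507). The HK1 difference passed the fit with median and trimmed-mean scaling but not after quantile normalization. The ratio of HK1 to HK2 within an array, which multiplying all signals of an array by 1 factor does not change, was 3.52-fold higher in Siglec-14/THP-1 without NTHi and 2.28-fold higher with NTHi. The same quantity for SLC2A3 over SLC2A1 was 2.39-fold and 2.11-fold higher.

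Past the hexokinases, the sublines were close along the glycolytic chain except for ENO2 and PKM. Of the 15 enzymes from GPI to LDHB, ENO2 alone was at least 1.5-fold different without NTHi, and ENO2 and PKM with NTHi. ENO2, the enolase of neurons, had 44.4 and 41.9 in Siglec-14/THP-1 and 16.9 and 19.2 in Siglec-5/THP-1, where both signals lay just above the floor. It was 2.64-fold and 2.18-fold higher in Siglec-14/THP-1 (log2 1.26, standard error 0.37, limma adjusted p = 0.0131). ENO1, the general enolase, had far brighter signals, between 8162 and 9181, and ratios of 0.904 and 1.02. ENO2 over ENO1 was 2.92-fold and 2.13-fold higher in Siglec-14/THP-1. PKM, the pyruvate kinase of most tissues, had 296 and 344 in Siglec-14/THP-1 and 225 and 182 in Siglec-5/THP-1, 1.32-fold and 1.89-fold higher (log2 0.66, standard error 0.16, limma adjusted p = 0.00148). Its second probe set had 1.79 and 1.53. LDHB over LDHA, by contrast, stayed at 1.06 and 1.02. PFKFB3 had 117 and 120 in Siglec-14/THP-1 and 183 and 150 in Siglec-5/THP-1, ratios of 0.637 and 0.803, and PFKFB4 over PFKFB3 was 1.88-fold and 1.78-fold higher in Siglec-14/THP-1. The PFKFB3 difference did not pass the fit (limma adjusted p = 0.0803) but did under all 3 scalings, and without NTHi it was under 1.5-fold after quantile normalization and after trimmed-mean scaling.

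**Figure D2:**
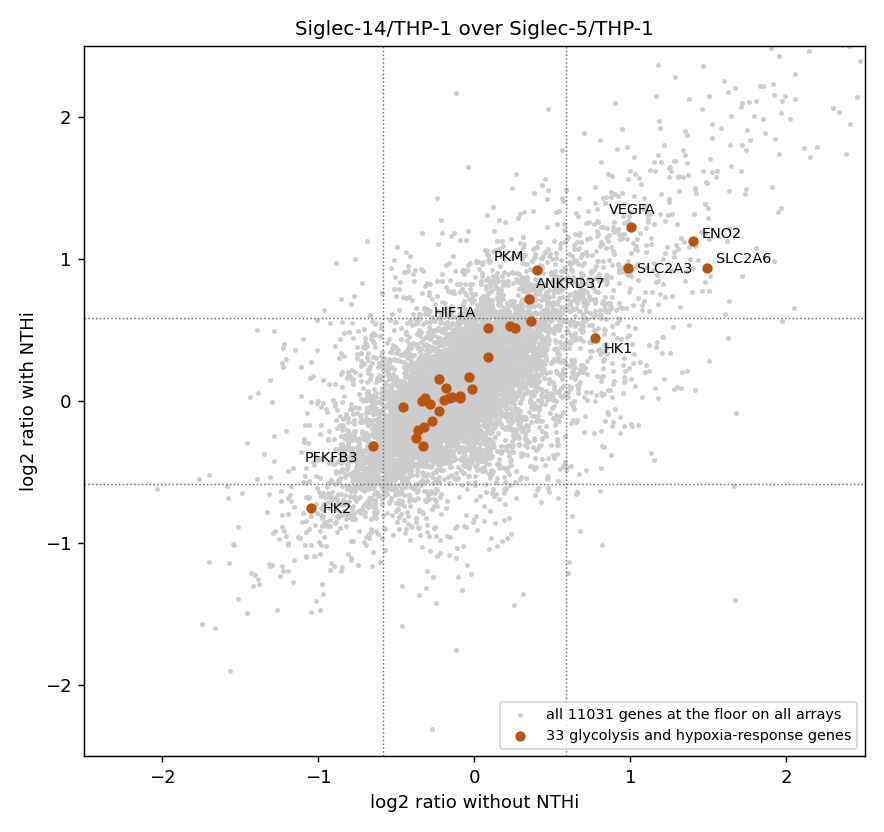
Each point is 1 gene that reached the floor in every sample, with the log2 ratio of Siglec-14/THP-1 to Siglec-5/THP-1 without NTHi on the x axis and with NTHi on the y axis; orange points are 33 genes of the list, grey points all 11031 genes, dotted lines mark 1.5-fold, and 40 genes lie outside the axes. SLC2A3, SLC2A6, ENO2 and VEGFA lie beyond 1.5-fold on both axes at the upper right and HK2 at the lower left.

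Each gene is in 1 group only, so a hypoxia target such as SLC2A1 can be grouped by another role. Of the genes grouped as hypoxia targets, VEGFA alone passed the fit for cell line to the signals as deposited. Its signal was 2.00-fold higher in Siglec-14/THP-1 without NTHi and 2.34-fold higher with NTHi (log2 1.12, standard error 0.15, limma adjusted p = 2.38e-11), and nonstimulated Siglec-14/THP-1, at 772, was above stimulated Siglec-5/THP-1, at 497. All 4 VEGFA probe sets were higher in Siglec-14/THP-1 in both conditions, by 1.53-fold to 2.34-fold. ANKRD37, a small HIF-1 target, had 84.1 and 86.6 against 66.1 and 52.7, 1.27-fold and 1.64-fold higher (limma adjusted p = 0.138). Its dimmer probe set was below the floor on all 4 arrays. NDRG1 was 1.29-fold and 1.48-fold higher, BNIP3L 1.17-fold and 1.44-fold, and P4HA1 1.06-fold and 1.24-fold, and none of them passed the fit to the signals as deposited. NDRG1 and BNIP3L passed under all 3 scalings, P4HA1 after quantile normalization and trimmed-mean scaling, and ANKRD37 with trimmed-mean scaling alone. BNIP3 had ratios of 0.794 and 1.003. Over the 6 genes of this group at the floor the median log2 ratio was 0.29 without NTHi and 0.55 with NTHi, beside -0.13 and 0.06 over all genes at the floor. These medians depend on the grouping. Over all genes of the list at the floor the median was -0.15 without NTHi and 0.04 with NTHi. The longer list of other hypoxia targets had medians of 0.01 over 28 genes without NTHi and 0.41 over 25 with NTHi. HIF1A itself had ratios of 1.06 and 1.43, EPAS1 0.799 and 0.883, and EGLN1 0.780 and 0.866. None of them passed the fit to the signals as deposited. EGLN1 was lower in the fit under all 3 scalings, and HIF1A was higher after quantile normalization and trimmed-mean scaling.

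**Figure D3:**
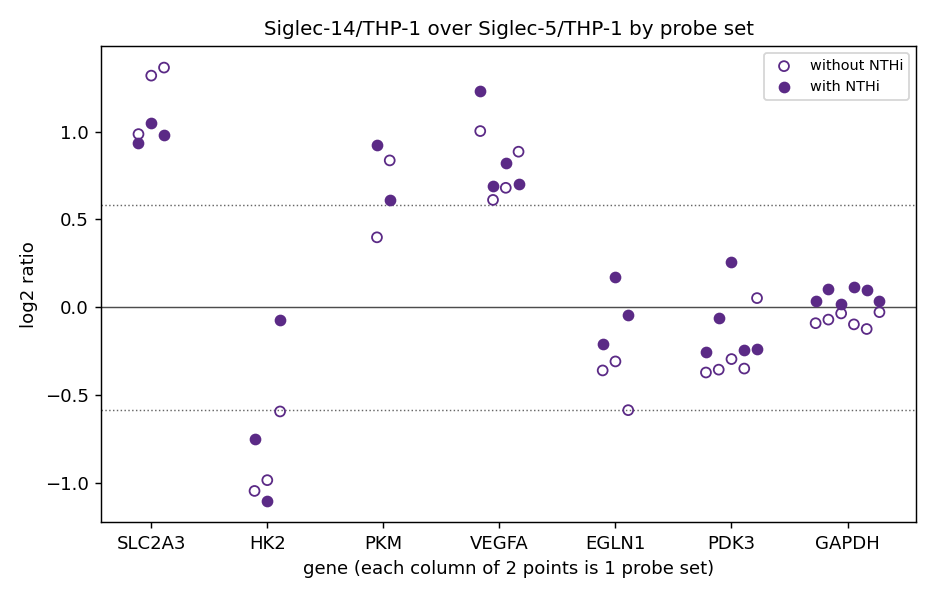
Log2 ratio of Siglec-14/THP-1 to Siglec-5/THP-1 (y axis) for each probe set at the floor on all 4 arrays, by gene (x axis); open points are without NTHi, filled points with NTHi, and dotted lines mark 1.5-fold. All probe sets of SLC2A3 and VEGFA lie above 0 and all of HK2 below it, whereas the 6 of GAPDH lie close to 0.

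Related genes outside the 39 are given by list. For NTHi, 0 of 16 other glycolysis genes, 11 of the pyruvate dehydrogenase group, 10 of the pentose phosphate pathway, 20 of the tricarboxylic acid cycle and 12 regulators of the HIF pathway passed the fit in either direction. Of 28 other hypoxia targets, 2 rose and 0 fell, against 0.99% and 0.294% of all genes. DDIT4, a stress-induced inhibitor of mTORC1, had 1960 and 3306 in Siglec-14/THP-1 and 987 and 1388 in Siglec-5/THP-1 (log2 0.62, standard error 0.15, limma adjusted p = 0.00914). TFRC, the transferrin receptor, had 3101 and 4893, and 1256 and 2326 (log2 0.77, standard error 0.16, limma adjusted p = 3.42e-04). Both are also regulated by signals other than oxygen.

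Between the sublines, 6 of these 28 targets were higher and 3 lower in Siglec-14/THP-1, against 6.22% and 4.95% of all genes. BHLHE40, a circadian transcriptional repressor, had 320 and 396 against 111 and 102 (log2 1.74, standard error 0.17, limma adjusted p = 6.51e-22), and HMOX1, the haem-degrading enzyme, had 68.3 and 84.2 against 17.4 and 19.5. DDIT4, TFRC, P4HA2 and PPP1R3B were the remaining higher ones. The lower ones were AK4, a mitochondrial adenylate kinase, CXCR4, the receptor of CXCL12, and MXI1, an antagonist of MYC-type factors. CXCR4 had 286 and 268 against 567.5 and 505 (log2 -0.95, standard error 0.16, limma adjusted p = 8.81e-08). Among other glycolysis genes ENO3, the muscle enolase, was higher (77.0 and 100.1 against 30.1 and 53.3), in the same direction as ENO2. PDK4, which inhibits pyruvate dehydrogenase, was higher in the fit, with 32.5 and 22.4 against signals below the floor in Siglec-5/THP-1, at least 2.03-fold and 1.40-fold. In the pentose phosphate group SHPK was higher and RPIA lower, and 0 of the tricarboxylic acid cycle genes and HIF regulators passed in either direction.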

How the data were processed

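RNA of 4 cell samples was measured on 1 array each. The authors quantified signals with GCOS, the Affymetrix array software (version not stated), and their methods name a standardization on the cumulative signal over all probes. The deposited values are linear signal intensities of 54675 probe sets. Their sums differ between arrays, so whether they carry that standardization is not known. Probe sets were named through the platform annotation: 41097 have 1 gene, 1801 several and 11777 none. The genes, lists and tests were chosen with earlier results of these data known.

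Signals were used as deposited, with no rescaling. Ratios of pairs of arrays were taken on the brightest probe set of each gene, with a floor of 16.0 and a threshold of 1.5-fold. The shared test was limma 3.58.1 in R 4.3.3 (lmFit, then eBayes with an intensity trend) on log2 signals of 32017 probe sets whose highest signal was no lower than the floor. It had additive terms for NTHi and cell line, 1 residual degree of freedom and infinite prior degrees of freedom, so the variance came from the trend alone. P-values were adjusted over all of these probe sets by the Benjamini-Hochberg method, with a threshold of 0.05. A run of the fit on simulated data with independent noise required only that nearly all planted changes had the right sign, and gives no error rate for these data.

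All 4 signals are given for genes of the list at least 1.5-fold different in any comparison and, whatever their values, for HIF1A, EPAS1, GAPDH, LDHA, PKM, SLC2A1 and SLC2A3. The plan was to name up to 5 genes with the largest ratios from each related list; instead those that passed the fit were named, and this and the isoform pairs were chosen after their values were seen. Alternatives were other scalings, floors, thresholds, pseudocounts, probe sets and fits. Promoters are RefSeq, GRCh38.p14. Python 3.11.15 with pandas 2.3.3, numpy 2.4.6 and matplotlib 3.10.9 was used. With 1 array per condition, the number of arrays limits the precision.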

Additional observations from a re-analysis of the deposited data

How the results depend on the processing

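Counts below are of genes of the list. With NTHi in Siglec-14/THP-1, 2 genes were higher by 1.5-fold or more, and 1 after quantile normalization, trimmed-mean scaling, a pseudocount equal to the floor or a 2-fold threshold. In Siglec-5/THP-1, 1 was higher, and 0 with the floor at the 75th percentile or 2 at a looser threshold. There 1 was lower, and 3 with the floor at the 25th percentile or no floor, 0 with the floor at the 75th percentile, the pseudocount or a 2-fold threshold, and 5 at the looser one. Higher in both lines was 1, and 0 with the floor at the 75th percentile or 2 at the looser one. Without NTHi, 5 were higher in Siglec-14/THP-1, and 2 with the floor at the 75th percentile, 3 at 2-fold or 8 at the looser one, and 3 were lower, or 9 at the looser one. With NTHi 6 were higher, and 2 at 2-fold or 11 at the looser one, and 1 was lower, or 0 at 2-fold. In both conditions 4 were higher, and 2 with the floor at the 75th percentile, 2 at 2-fold or 8 at the looser one, and 1 was lower, or 0 at 2-fold. Stricter thresholds and floors leave fewer genes by construction.

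In the limma fit, 1 gene rose with NTHi, and 2 did with median scaling or quantile normalization, 8 with trimmed-mean scaling, and 0 without the trend or without the cell line term. Between the lines 5 were higher, and 8 with median scaling, 9 with quantile normalization, 11 with trimmed-mean scaling and 0 without the trend, and 1 was lower, or 5, 4, 4 and 0 in that order. The cause of these shifts was not tested. The list's median log2 ratio with NTHi changed sign with scaling. In Siglec-14/THP-1 it was 0.13, and -0.027 after quantile normalization, and in Siglec-5/THP-1 it was -0.06, and 0.0404 with median and 0.0485 with trimmed-mean scaling. Between the lines with NTHi it was 0.04, and -0.0748, -0.0082 and -0.016 with median scaling, quantile normalization and trimmed-mean scaling. For the 19 single ratios past 1.5-fold, 201 values under the alternatives included 182 that stayed past the threshold, 19 that did not and 0 that changed sign. Other floors, the looser threshold and leaving out control probe sets do not alter these ratios, so many of the 182 were bound to stay. A gene that fell below a raised floor gave no value and is not counted as lost. The tally is thus no measure of how firm the ratios are. VEGFA with NTHi in Siglec-14/THP-1 had 0.59 on the log2 scale, and 0.20 as the median over its probe sets.

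No paired analysis was possible because each condition has 1 array and the labels give no replicate numbers. For the same reason no array could be left out. Signals near the floor vary most: the log2 ratio of dimmer genes had an SD between 0.95 and 1.12, which limits SLC2A6, ENO2 and EGLN3. It also limits HK1 and ANKRD37, whose highest signals of 103 and 86.6 were in the dimmer band.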
